A study of Rattus norvegicus with 4 samples.

Results

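The iodothyronine deiodinases are 3 selenium-containing enzymes, encoded in the rat by Dio1, Dio2 and Dio3, that remove iodine from thyroid hormones. All probes that the array design assigned to these 3 genes through their transcript identifiers were taken, whatever their measured values. There were 2 probes for Dio1, 1 for Dio2 and 2 for Dio3, which makes 5 of 41012 probes and 3 of 13440 named genes. The genes themselves were chosen with earlier results of these data known. RNA came from the hypothalamus of 8 male Sprague Dawley rats that entered the study at 7 weeks of age and were 10 weeks old when tissue was taken. All 8 drank water with 0.025% methimazole (MMI), a drug that blocks thyroid hormone synthesis, for 22 days. By design, both groups were thus hypothyroid before the treatment on day 21. Rats without methimazole were not analysed here. On day 21, 4 rats received triiodothyronine (T3, the active thyroid hormone) at 25 µg per 100 g and 4 received saline, and blocks of tissue from bregma -2.12 to -4.52 mm were collected 24 hours later. Each of 4 two-colour arrays paired the RNA of 1 T3 rat with that of 1 saline rat, with T3 in the red dye Cy5 on arrays 1 and 3 and in the green dye Cy3 on arrays 2 and 4.

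Deiodinase type 2, the product of Dio2, converts the prohormone thyroxine (T4) into T3, while deiodinase type 3, the product of Dio3, inactivates both T4 and T3. Deiodinase type 1, the product of Dio1, can do either and is known chiefly from liver, kidney and thyroid. In the rodent hypothalamus Dio2 is known from tanycytes, glial cells that line the third ventricle, and from astrocytes, while Dio3 is known from neurons and also from tanycytes. In rodent brain, T3 is known to raise Dio3 transcripts, and Dio2 activity is known to be high when thyroid hormone is low.

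The median brightness of a spot was between 110 and 138.5 for Cy3 and between 238 and 281 for Cy5, depending on the array. The scanner software called 49.8% to 67.3% of probes well above background for T3 rats and 51.1% to 62.5% for saline rats. The hypothalamic transcription factor gene Nkx2-1 and the prohormone gene Pomc were well above background in both channels of all 4 arrays. Probes entered the test if that call was made for 3 or more T3 rats or for 3 or more saline rats. Of the 41012 probes, 23190 passed, and they named 9304 genes. Of the 5 deiodinase probes, 1 passed, the Dio3 probe A_43_P11861, and the other 4 were described without a place in the main test. All arrays with the same dye orientation correlated more closely (r = 0.38 for arrays 1 and 3, r = 0.18 for arrays 2 and 4, across kept probes) than arrays of opposite orientation (r between -0.11 and 0.12).

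Dio3 is an intronless gene that lies, with Dlk1 and Meg3, in an imprinted region of rat chromosome 6. The 250 bases before its annotated start are shown because Dio3 was the deiodinase bright enough to be tested. The sequence is RefSeq's, on the plus strand of build GRCr8 at chr6:135106822-135107071, and capitals mark matches to the motifs searched.
Dio3 upstream sequence: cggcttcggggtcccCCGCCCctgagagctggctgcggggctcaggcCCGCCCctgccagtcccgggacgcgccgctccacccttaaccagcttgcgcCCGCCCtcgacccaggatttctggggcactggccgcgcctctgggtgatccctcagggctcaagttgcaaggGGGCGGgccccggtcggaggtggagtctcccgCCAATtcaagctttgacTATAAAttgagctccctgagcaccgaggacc
The 4 motifs below were searched on both strands, and their matches did not overlap. The TATA box letters TATAAA occurred 1 time in the Dio3 window, starting 31 bases before the start, and 12.9% of 33469 such windows held them. The CCAAT letters occurred 1 time, 48 bases before the start (34.0% of windows), and the GC box letters GGGCGG 4 times, 235, 203, 152 and 80 bases before it (30.5% of windows). The nuclear receptor half-site AGGTCA was not among the letters of the Dio3, Dio2 or Dio1 window (14.1% of windows). Dio2 held TATAAA 1 time, 220 bases before its start, and neither CCAAT nor GGGCGG, and Dio1 held none of the 4 motifs. The G and C content was 68.8% for Dio3, against 49.6% for Dio2, 55.2% for Dio1 and a median of 51.2% over all windows.

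The brighter Dio3 probe, A_43_P11861, gave a higher signal with T3 on all 4 arrays, and on average its ratio was the highest of the 9304 genes. Its background-subtracted brightness in the T3 rats was 3119.5 on array 1, 1068.5 on array 2, 6903 on array 3 and 847 on array 4. In the saline rats of the same arrays it was 98.5, 834.5, 165 and 832. The T3 rat was the brighter on arrays 1 and 3 by a wide margin and on arrays 2 and 4 by a small one in these units, in which Cy5 read brighter than Cy3 over all spots. All 8 channels were well above background and none was saturated.

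After loess normalization, which removes the overall brightness difference between the dyes, the log2 ratio of T3 over saline was 3.43, 1.59, 3.56 and 1.40 on arrays 1 to 4. The mean was 2.49 ± 1.16 (SD, n = 4 arrays), a 5.64-fold difference. Arrays 1 and 3 gave more than arrays 2 and 4, with no overlap between the dye orientations. Across all kept probes, limma called 23 of 23190 (0.0992%) past a Benjamini-Hochberg adjusted p of 0.05, 22 higher (0.0949%) and 1 lower (0.00431%). Dio3 was not among them, with limma's adjusted p of 0.0839 (unadjusted p = 2.36e-04, standard error 0.38). The exact sign-flip permutation test over the 4 arrays gave p = 0.125, which is the smallest 4 arrays allow. Of the 22634 kept probes with a value on all 4 arrays, 8.11% were above 0 on all 4. By size, Dio3 ranked 1st of 9282 genes on array 1, 4th of 9301 on array 2, 1st of 9274 on array 3 and 14th of 9101 on array 4. These are whole-tissue extracts, in which more cells of a type and more RNA per cell cannot be told apart.

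**Figure D1:**
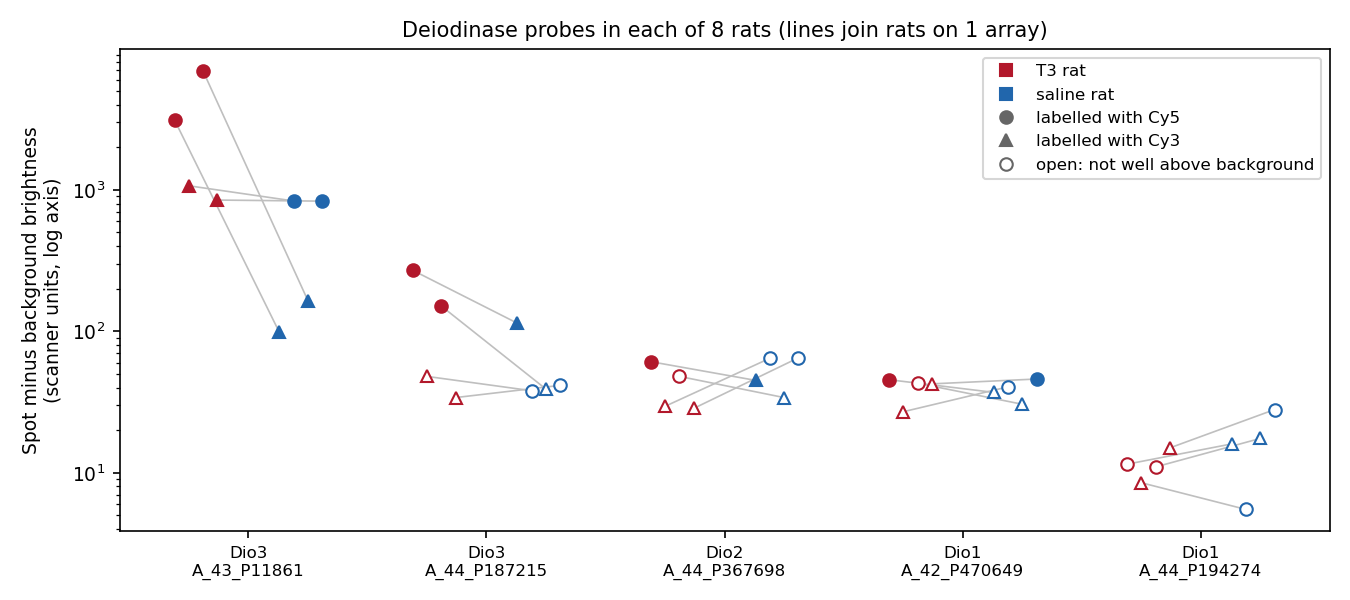
Background-subtracted median brightness (log axis) of the 5 deiodinase probes in each rat, with T3 rats (red) left of saline rats (blue). Circles are Cy5, triangles Cy3, open symbols were not well above background, and lines join the rats of an array. The brighter Dio3 probe reached 847 to 6903 in T3 rats and 98.5 to 834.5 in saline rats, while the Dio1 and Dio2 probes stayed at 65 or less.

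Levels per rat were then compared after scaling the channels to a common average brightness. On this log2 scale the level of the brighter Dio3 probe was 10.95, 10.68, 12.10 and 10.70 in the T3 rats of arrays 1 to 4. It was 7.52, 9.09, 8.54 and 9.30 in the saline rats. The lowest T3 rat lay above the highest saline rat, as was the case for 0.981% of 22634 kept probes. The means were 11.11 ± 0.67 in T3 rats and 8.61 ± 0.79 in saline rats (SD, n = 4 each), and an exact permutation test over the 8 rats, which ignores the pairing, gave p = 0.0286, the smallest it allows.

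For the brighter Dio3 probe, the difference was present among rats labelled with the same dye. In Cy5, the background-subtracted brightness averaged 5011 in the T3 rats of arrays 1 and 3, against 833.2 in the saline rats of arrays 2 and 4. In Cy3, it averaged 957.8 in the T3 rats of arrays 2 and 4, against 131.8 in the saline rats of arrays 1 and 3. The log2 level was higher in T3 rats by 2.33 within Cy5 (5.04-fold) and by 2.66 within Cy3 (6.31-fold), with 2 rats in each set and no test. Within the arrays, by contrast, the mean log2 ratio was 3.49 (11.3-fold) with T3 in Cy5 and 1.49 (2.82-fold) with T3 in Cy3.

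**Figure D2:**
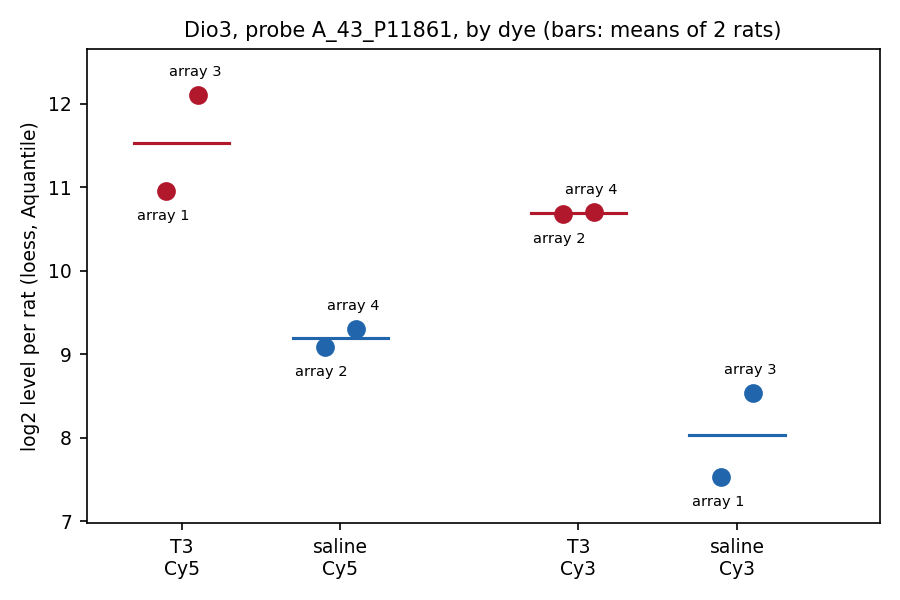
log2 level of the brighter Dio3 probe in each rat (points) by dye, T3 left of saline, with bars at the mean of 2 rats. T3 rats lie above saline rats within both dyes, by 2.33 in Cy5 and 2.66 in Cy3, and Cy5 levels lie above Cy3 levels within each treatment.

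A dye term, fitted to all kept probes together with the T3 term, measured this split. Its coefficient for the brighter Dio3 probe, which is 1/2 of the difference between the orientations, was 1.00, with limma's adjusted p of 0.0953. Its size ranked 13th of 23187 probes, where the SD over probes was 0.14. With the dye term in the model, the Dio3 difference of 2.49 had a standard error of 0.065 and limma's adjusted p of 0.000746, so the call depended on this choice. That model called 15 of 23190 probes (0.0647%) for T3 and 0 of 23187 for dye, for which 3936 had an unadjusted p under 0.05. Only the Dio3 probe, among kept probes, had a T3 coefficient as large as its own.

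**Figure D3:**
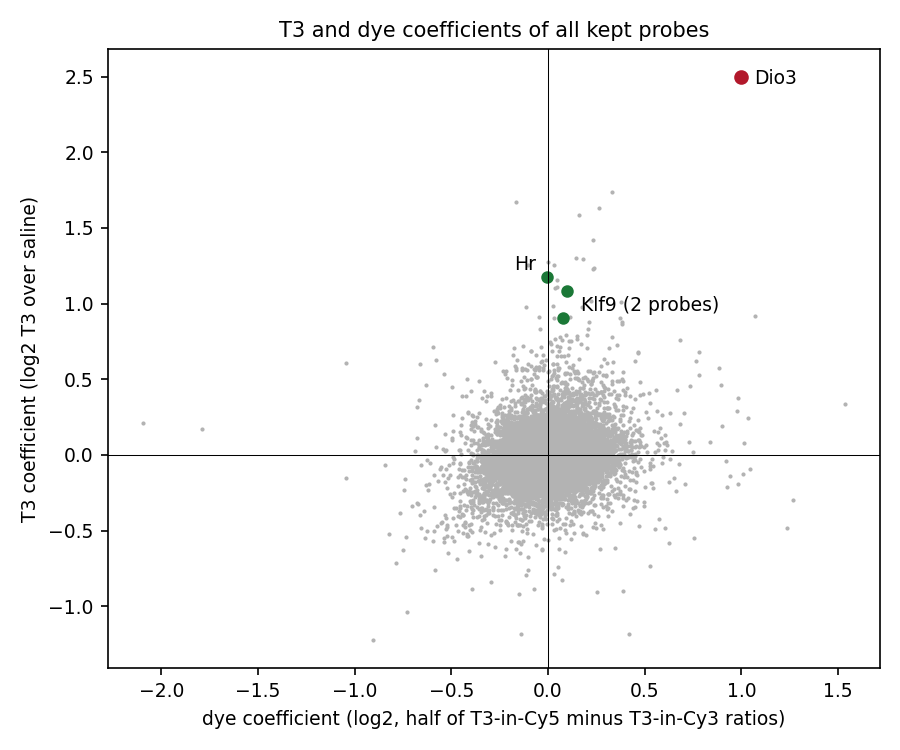
T3 over saline coefficient (y axis, log2) against the dye coefficient (x axis, log2) of each kept probe (grey points), with the brighter Dio3 probe and the Hr and Klf9 probes labelled. Dio3 lies at a T3 coefficient of 2.49, above every other probe, and a dye coefficient of 1.00, and Hr and Klf9 lie near 0 on the dye axis.

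The second Dio3 probe, A_44_P187215, was dim. Its background-subtracted brightness was 270, 48, 151 and 34 in the T3 rats of arrays 1 to 4, and 114, 38, 39 and 41.5 in the saline rats. It was well above background in 2 of 4 T3 rats and in 1 of 4 saline rats, all on arrays 1 and 3, and it was not kept for the main test. Its log2 ratio was 0.22, 0.48, 0.50 and 0.14, with a mean of 0.34 ± 0.18 (SD, n = 4), or 1.26-fold. In a fit of all 41012 probes without the filter, which called 0.163% of them, limma's adjusted p was 0.347, and the exact sign-flip permutation test gave p = 0.125. Both Dio3 probes were thus above 0 on all 4 arrays, as were 6.99% of 40155 probes. With Agilent's processed signals its mean was 1.17 ± 0.42 (2.25-fold), and with a smaller normexp offset of 10 it was 0.53, so its size depended on how background was treated. The level per rat overlapped between the groups, at 6.62 to 7.85 in T3 rats and 6.35 to 7.63 in saline rats on the log2 scale (exact permutation p = 0.429 over 8 rats). Among rats labelled with the same dye, T3 minus saline was 1.15 within Cy5 but -0.48 within Cy3, without a test. The dimmer probe thus did not share the direction of the brighter one within Cy3. The ratio of the brighter probe was the larger on each array under the normexp and the Agilent signals, but the size of that gap is uncertain because most channels of the dim probe were not well above background.

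Dio2, the gene of the T3-producing enzyme, was read by 1 probe, A_44_P367698, which was close to background. Its background-subtracted brightness was 61, 29.5, 48 and 28.5 in the T3 rats of arrays 1 to 4, and 45, 64.5, 34 and 65 in the saline rats. The values followed the dye, with Cy5 above Cy3 on each array, and the probe was well above background on array 1 alone, in both channels. The normalized log2 ratio was -0.09, -0.16, -0.08 and -0.20, with a mean of -0.13 ± 0.06 (SD, n = 4). It was below 0 on 4 of 4 arrays, as was the case for 6.96% of 40155 probes, and the exact sign-flip permutation test gave p = 0.125, the smallest possible. In the fit without the filter, limma's adjusted p was 0.902. The level per rat overlapped between the groups, at 6.47 to 6.69 in T3 rats and 6.55 to 6.78 in saline rats on the log2 scale (exact permutation p = 0.114 over 8 rats). With Agilent's processed signals the mean was -0.82 ± 0.24, so the size of the ratio depended on the treatment of background at this low signal. A difference in Dio2 was not established by these tests.

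Dio1 was read by 2 probes, both at background on most arrays. Probe A_42_P470649 had a background-subtracted brightness of 45.5, 27, 43 and 42.5 in T3 rats, and of 37, 40.5, 30.5 and 46 in saline rats. It was well above background in the T3 rat of array 1 and the saline rat of array 4. Its log2 ratio was -0.08, -0.02, -0.04 and 0.30, with a mean of 0.04 ± 0.17 (SD, n = 4, limma's adjusted p = 0.996 without the filter). Probe A_44_P194274 had 11.5, 8.5, 11 and 15 in T3 rats and 16, 5.5, 17.5 and 28 in saline rats, and 0 of its 8 channels were well above background. Its log2 ratio was 0.0031, -0.12, -0.04 and -0.25, with a mean of -0.10 ± 0.11 (SD, n = 4, limma's adjusted p = 0.961 without the filter). No Dio1 transcript was thus measured reliably in either group, and different probes cannot be ranked against each other by brightness.

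**Figure D4:**
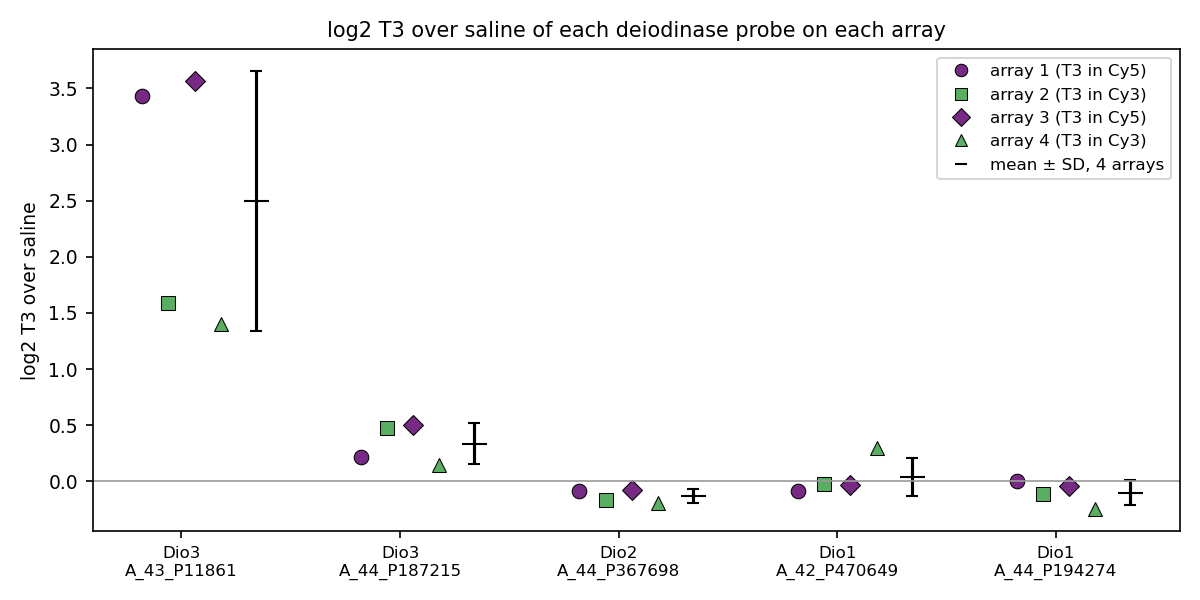
log2 ratio of T3 over saline of each deiodinase probe on each array (points, coloured by dye orientation) with the mean and SD of 4 arrays. The brighter Dio3 probe lies between 1.40 and 3.56, split by dye orientation, and the other 4 probes lie between -0.25 and 0.50.

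The authors' deposited table of ratios placed the brighter Dio3 probe above 0 on every array, at 1.35, 1.71, 0.68 and 2.97. In the authors' deposited table the dimmer Dio3 probe had 0.12, 0.25, -0.03 and 0.34, and Dio2 had -0.15, -0.04, -0.16 and 0.07. There array 4 gave the highest Dio3 ratio and array 3 the lowest, whereas the scanner values gave the highest on array 3 and the lowest on array 4. The columns of the authors' deposited table correlated with the scanner ratios of their own arrays at r = 0.43, 0.42, 0.19 and 0.28 across kept probes. Each column correlated most with its own array, but at times by little. Column 4 had r = 0.27 with array 1, and column 2 had r = 0.31 with array 4. The match of columns to arrays is thus weak, and so is the contrast between arrays. The log base and centring of that table are unknown, and its direction was read as T3 over saline from the sign of the own-array correlations.

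A pair of textbook targets of thyroid hormone in brain were set beside Dio3. Hr, which encodes the corepressor hairless, had log2 ratios of 1.19, 1.00, 1.16 and 1.37 on arrays 1 to 4 and rose by 1.18 ± 0.15 (SD, n = 4, limma's adjusted p = 0.0129). Its dye coefficient was -0.0046, so that it did not show the split by orientation seen for Dio3. Klf9, which encodes a zinc finger transcription factor, had 0.77, 0.59, 1.19 and 1.07 at its brighter probe (mean 0.90 ± 0.27, limma's adjusted p = 0.0517) and 1.23, 0.84, 1.13 and 1.14 at its other kept probe, which rose by 1.09 ± 0.17 (SD, n = 4, adjusted p = 0.0129). Dio3 was higher than Hr and Klf9 on each array, most closely on array 4, where Dio3 had 1.40 and Hr 1.37.

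Genes were ranked by the Euclidean distance of their 4 array ratios from those of the brighter Dio3 probe, over 9048 genes with a value on every array. The nearest was Hhatl, related to the hedgehog acyltransferase, at a distance of 2.52, with ratios of 1.58, 1.19, 1.91 and 1.65. Next came Rpe65, a retinoid isomerase of the retinal pigment epithelium, at 2.55, the neuronal activity gene Arc at 2.66, the hedgehog transcription factor gene Gli2 at 3.00 and Bpifa1, known as a secreted airway protein, at 3.03. The median distance over all genes was 5.37 and that of a gene with no difference on any array 5.38.

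Lists of genes around the deiodinases were then followed, 154 genes in 16 lists besides the deiodinases themselves. Of these, 105 were measured and 3 passed the threshold, Hr and Gli2 higher and Cbs lower, where 0.0992% of all kept probes passed. At an unadjusted p under 0.05 there were 23 of the 105, against 8.12% of all kept probes (1883 of 23190), which is the share to set beside the unadjusted counts of the lists below. The median log2 ratio over all 9304 genes was 0.0042, with 51.9% above 0. All 3 belonged to the list of T3-responsive genes of brain, of which 11 of 12 were measured, 2 rose and 1 fell, with a median of 0.33. Gli2 had 1.59, 0.72, 1.36 and 1.28 on arrays 1 to 4 (mean 1.24 ± 0.37, limma's adjusted p = 0.0343). Cbs, the gene of cystathionine beta-synthase, fell by 0.62 ± 0.10 on the log2 scale (limma's adjusted p = 0.0426). This list and all the others were drawn up with results of these arrays known. Their counts, unadjusted ones included, are thus no independent support for any direction or excess.

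Of the thyroid hormone transporters and binding proteins, 6 of 10 were measured, 0 passed in limma (0 at an unadjusted p under 0.05) and the median was 0.08. The amino acid and hormone transporter gene Slc7a8 had 0.24 ± 0.28 (SD, n = 4, adjusted p = 0.651), and Ttr, which encodes the hormone-binding protein transthyretin, had 0.92 ± 1.77 (adjusted p = 0.777). Of the receptors and coregulators, 5 of 11 were measured and 0 passed in limma (1 at an unadjusted p under 0.05), with a median of -0.06. Rxrg, a retinoid X receptor that pairs with the thyroid hormone receptors, had -0.39 ± 0.21 (adjusted p = 0.253), Rxrb had 0.25 ± 0.35 (adjusted p = 0.696) and Thra, the gene of thyroid hormone receptor alpha, had -0.10. Of the 6 genes of hormone sulfation, glucuronidation and iodotyrosine deiodination, 1 was measured, the sulfotransferase gene Sult1a1 at -0.21 ± 0.37 (limma's adjusted p = 0.788).

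Of the genes reported to regulate Dio3 transcription, 7 of 12 were measured, with a list median of 0.04 (4 at an unadjusted p under 0.05 in limma). Among them 1 rose, Gli2, which was already counted in the list of T3-responsive genes. Tgfb2, a transforming growth factor gene, had -0.30 ± 0.16 (adjusted p = 0.342) and the hypoxia factor gene Hif1a 0.22 ± 0.15 (adjusted p = 0.532). The hedgehog partners of Gli2 did not pass. Smo had 0.21 (limma's adjusted p = 0.543) and Ptch1, a textbook target of the pathway, had 0.01 (adjusted p = 0.988). Of the reported regulators of Dio2, 4 of 7 were measured and 0 passed (1 at an unadjusted p under 0.05 in limma), with a median of -0.07. The cyclic AMP response gene Creb1 had 0.21 ± 0.16 (adjusted p = 0.570) and Crem -0.17 ± 0.16 (adjusted p = 0.676). Of the ubiquitination genes that act on the Dio2 protein, 7 of 9 were measured and 0 passed (0 unadjusted in limma), with a median of -0.0034. Wsb1, the substrate adaptor of the ligase, had -0.15 ± 0.14 (adjusted p = 0.699) and the conjugating enzyme gene Ube2j2 0.06 ± 0.06 (adjusted p = 0.923).

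Deiodinases carry selenocysteine, and their making needs dedicated factors. Of the selenoprotein synthesis genes, 8 of 11 were measured and 0 passed in limma (1 at an unadjusted p under 0.05), with a median of -0.01. Scly, which recycles selenium from selenocysteine, had 0.21 ± 0.12 (adjusted p = 0.521) and Secisbp2l -0.17 ± 0.25 (adjusted p = 0.761). Of the other selenoproteins, 12 of 14 were measured and 0 passed (0 unadjusted in limma), between -0.08 and 0.16. The thioredoxin reductase gene Txnrd1 had 0.15 ± 0.11 (adjusted p = 0.676) and Msrb1, a methionine sulfoxide reductase gene, 0.13 ± 0.10 (adjusted p = 0.756).

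Of the genes of the imprinted region that holds Dio3 and of its surroundings, 6 of 11 were measured and 0 passed in limma (0 unadjusted), with a median of 0.05. Meg3, Rtl1, Dio3os, Mirg and Ppp2r5c were not measured, so these values do not cover the whole region. Dlk1, known from mouse as a paternally expressed gene of this region, had 0.03, 0.24, -0.11 and 0.24 on arrays 1 to 4 (mean 0.10 ± 0.17, adjusted p = 0.867). Dync1h1 had -0.27 ± 0.38 (adjusted p = 0.698) and Begain 0.15 ± 0.16 (adjusted p = 0.739). The difference of the brighter Dio3 probe thus stood beside differences of -0.27 to 0.15 in these 6 genes.

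**Figure D5:**
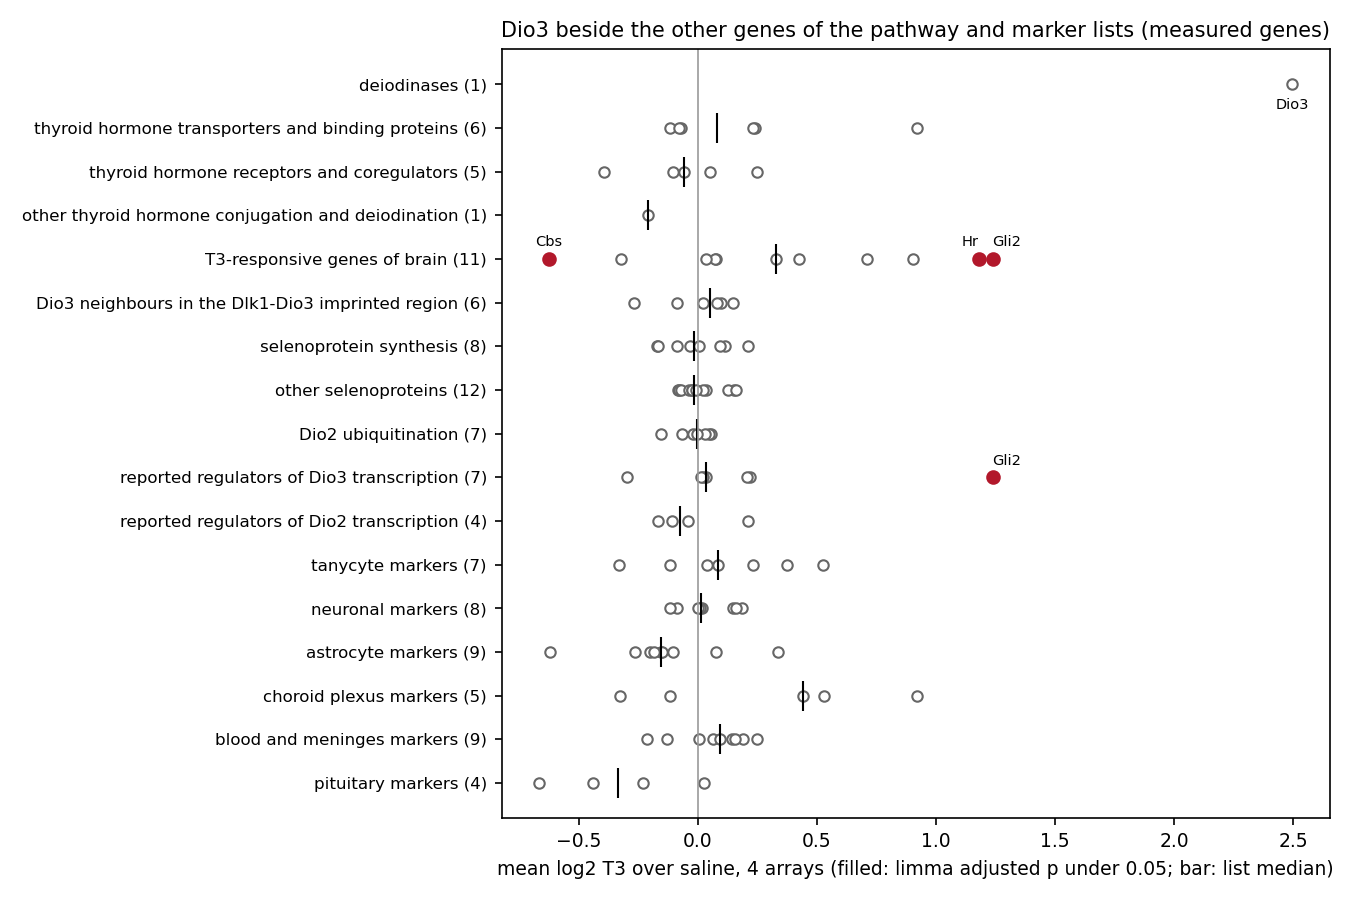
Mean log2 ratio of T3 over saline (x axis, n = 4 arrays) of every measured gene of each list (points), with genes past an adjusted p of 0.05 filled in colour and the median of each list as a bar. Dio3 lies at 2.49, and Hr, Gli2 and Cbs are the only list genes past the threshold.

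Markers of the cells that the blocks could hold were read on the same arrays. None of the lists had a member past the threshold in limma. The tanycyte markers, 7 of 12 measured, had a median of 0.09 (3 at an unadjusted p under 0.05), with Adm at 0.53 ± 0.37 (adjusted p = 0.284), Nes at 0.37 ± 0.32 (adjusted p = 0.453) and, in the other direction, Vim at -0.33 ± 0.35 (adjusted p = 0.574). The defining tanycyte gene Rax was not kept. The neuronal markers, 8 of 10 measured, had a median of 0.02 (0 unadjusted), with 6 above 0 and 2 below. Elavl4 had 0.15 ± 0.16 and Nefm, without a value on array 4, 0.18 ± 0.26. In the other direction, Map2 had -0.12 ± 0.45 and Syt1 -0.09 ± 0.27. The astrocyte markers, 9 of 9 measured, had a median of -0.15 with 7 below 0 (3 unadjusted), with the gap junction gene Gja1 at -0.62 ± 0.23 (adjusted p = 0.0934), Aldoc at -0.26 ± 0.03 (adjusted p = 0.281) and, in the other direction, the glutamate transporter gene Slc1a2 at 0.34 ± 0.26 (adjusted p = 0.430).

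Tissue next to the blocks was followed in the same way. The choroid plexus markers, 5 of 8 measured, had a median of 0.44 (2 unadjusted), and their summed level was 2715 to 16459 in T3 rats and 2175 to 3341 in saline rats. The top value was that of the T3 rat of array 3, where Ttr had a ratio of 3.53 and Dio3 its highest, 3.56. On arrays 1, 2 and 4, the Ttr ratio was 0.45, -0.36 and 0.06 while Dio3 had 3.43, 1.59 and 1.40, and the Dio3 mean without array 3 was 2.14 (limma's adjusted p = 0.359). Otx2 had 0.44 ± 0.39 (adjusted p = 0.440) and Calml4 -0.33 ± 0.24 (adjusted p = 0.414). The blood and meninges markers, 9 of 10 measured, had a median of 0.09 (0 unadjusted), with 7 above 0 and 2 below. Their summed levels were 32621 to 59924 in T3 rats and 29158 to 86930 in saline rats. Igfbp2 had 0.25 ± 0.42 and Dcn 0.19 ± 0.35. In the other direction, Hbb had -0.21 ± 2.05 and Alas2 -0.13 ± 2.09. On array 2 Hbb had -3.25 and Alas2 -3.20, while both were above 0 on arrays 1, 3 and 4. The pituitary markers, 4 of 8 measured, had a median of -0.33 (1 unadjusted), with summed levels of 14561 to 34682 in T3 rats and 11188 to 39912 in saline rats, which overlapped. Tshb, the beta subunit of thyrotropin that T3 is known to lower, had -0.67 ± 0.57 (adjusted p = 0.362), and Cga, its alpha subunit, -0.44 ± 0.69 (adjusted p = 0.702). Tshb was well above background in 2 of 4 T3 rats and 3 of 4 saline rats, and Cga in 3 of 4 of each. On array 4 the Tshb ratio was 0.17, and on array 2 the Cga ratio was 0.50. The part of these markers in the Dio3 result was not tested. Array 3 also had T3 in Cy5, as did array 1, and the Dio3 mean without array 1 was 2.18. The value without array 3 therefore cannot separate choroid plexus tissue from dye orientation.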

How the data were processed

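Total RNA of 8 rats was measured on 4 two-colour Agilent arrays. Each deposited scanner file gave the median intensity of every spot and of its background, not normalized, besides a processed intensity and the log10 ratio of the processed red and green signals; the file headers name Agilent Feature Extraction 10.7.3.1. The value table deposited by the authors was read as log2 ratios. Per the submitters' processing notes limma 3.18.9 was used for it, while its base and centring are not given in the sources used here.

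Background was corrected with normexp (offset 50) and arrays were normalized by loess in limma 3.58.1 under R 4.3.3, with control spots at weight 0. Spots marked as outliers were left out, spots of a probe were averaged, and ratios were turned to log2 of T3 over saline. Levels per channel were computed after loess and Aquantile scaling. The test was limma's lmFit with eBayes (2-sided, 3 residual and 4.35 prior degrees of freedom) with Benjamini-Hochberg adjustment over all kept probes, and the procedure was tested on simulated data. Exact permutation tests used Python 3.11.15.

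Transcript identifiers were matched to RefSeq genes (assembly GRCr8), for names and gene order alone; 16964 probes had 1 symbol and 24048 had none. A gene's value in the lists was that of its brightest kept probe. The members and lists were chosen with earlier results of these data known. Named were all deiodinase probes, Hr and Klf9, of each list every gene past the threshold or otherwise the pair with the smallest p, and the 5 genes nearest to Dio3. Thra, Smo, Ptch1, Dlk1, Tgfb2, Hif1a, Vim, Slc1a2, Map2, Syt1, Hbb and Alas2 were named besides, after their values were seen. The 8 rats are taken as separate replicates, and p-values measure only the spread between these arrays, whose number limits the precision. All arrays lay on 1 slide, so no slide effect could be tested. The by-dye values and the test over 8 rats were added after seeing the data.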

Additional observations from a re-analysis of the deposited data

Results flagged for a closer look

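The deiodinase probes and a part of the measured list genes gave 49 sets of 4 array values that were examined. Of these, 3 had 1 array far from the others by Dixon's criterion, where chance gives about 1 in 20. The brighter Dio1 probe had a log2 ratio of 0.30 on array 4, against -0.08 to -0.02 on the other arrays, at a signal close to background. The transporter gene Slc7a8 had 0.66 on array 1, against 0.088 to 0.12 elsewhere. Cbs had -0.77 on array 4, against -0.59 to -0.56 on the others, all below 0.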

How the results depend on the processing

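The brighter Dio3 probe was above 0 in the 9 alternatives that recompute its ratio, from 1.68 (authors' deposited table, adjusted p = 0.436) to 2.91 (Agilent's processed signals, adjusted p = 0.224); the other 6 keep the ratio and change only its test. Its call was not stable: limma's adjusted p, 0.0839 in the analysis as reported, ran from 0.000746 to 1.00. The ratio of 2.49 passed with the dye term (adjusted p = 0.000746), without the filter on dim probes (adjusted p = 0.0379) and at a threshold of 0.1, and did not pass with median centring (2.46, adjusted p = 1.00) or with a trended, robust prior (adjusted p = 0.830). Leaving out each array in turn gave 2.14 to 2.86. The dye coefficient of 1.00 was 1.48 with median centring (adjusted p = 2.26e-04, where 15471 probes were called for dye) and -0.66, the opposite sign, in the authors' deposited table (adjusted p = 0.337). Without background subtraction it was 0.99 and with Agilent's signals 1.23.

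The dim probes had no value in the dye-term, prior, threshold and both-channel settings, which test kept probes. The mean of Dio2 stayed below 0, at -0.23 with a normexp offset of 10, -0.82 with Agilent's signals and -0.069 in the authors' deposited table, and -0.15 to -0.11 with each array left out. With median centring the Dio2 mean was -0.13, but arrays 1 to 4 had -0.27, 0.18, -0.55 and 0.12, so the sign followed the dye orientation. The dimmer Dio3 probe stayed above 0, at 0.53 with the offset of 10, 1.17 with Agilent's signals and 0.52 with median centring, and 0.28 to 0.40 with each array left out. The brighter Dio1 probe ran from -0.045 to 0.097 and the dimmer from -0.26 (offset of 10) to -0.011 (authors' deposited table).

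Of the 105 list genes, 3 passed as reported (23 at an unadjusted p under 0.05). The count was 1 with the offset of 10 and in the authors' deposited table, 5 without the filter and 6 at a threshold of 0.1. It was 0 in limma with Agilent's signals (20 unadjusted), median centring (4) and the trended, robust prior (20). It was 0 without array 1, 3 or 4 (21, 19 and 24 unadjusted) and 4 without array 2, a range of 0 to 4. Over all probes, 23 were called as reported, 4 with the offset of 10, 67 without the filter, 10 in the authors' deposited table, 15 with the dye term, 90 at a threshold of 0.1 and 0 (1948 unadjusted), 0 (131) and 0 (1160) with Agilent's signals, median centring and the robust prior, against 1883 unadjusted as reported. Without arrays 1, 2, 3 and 4 the counts were 0 (1403), 68 (2330), 0 (1383) and 0 (1577). The low signal of Dio1, Dio2 and the dimmer Dio3 probe limits what these arrays can show of them. The pairing of a T3 rat with a saline rat lies within each array's ratio, so the limma and sign-flip tests are paired and no further replicate block was fitted.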

Other observations

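Genes next to Dio3 on rat chromosome 6 were read as a further description, chosen after the data were seen. Of the 15 protein-coding genes on each side, 15 were measured in all. None passed limma's threshold (1 at an unadjusted p under 0.05), their mean log2 ratios ran from -0.27 to 0.15 with a median of 0.02, and their smallest adjusted p was 0.554. These 15 include the 6 measured genes of the imprinted-region list above, so the sets are not separate. Dync1h1 and Begain, at the ends of the range, are in both.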
